A study of Mus musculus with 8 samples.

Results

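The collagen genes were taken as every protein-coding row of the expression table whose symbol had the form Col, a number, the letter a and a second number. The rule found 44 of the 54532 genes in the table. They were sorted by the kind of collagen they encode into 11 fibrillar genes, 8 basement membrane genes (the Col4, Col15 and Col18 families), 6 Col6 genes and 19 others. RNA-seq of mouse heart tissue at postnatal day 4 compared 4 cHET with 4 control hearts. The cHET hearts carried 1 floxed Mrps5 allele, 1 wild-type allele and the Myh6-Cre transgene (Mrps5 fl/+; Myh6-Cre). The control hearts, of littermates, carried the floxed and the wild-type allele but no Cre (Mrps5 fl/+). Mrps5 encodes a small-subunit protein of mitochondrial ribosomes, and the comparison asks what the heart's transcripts look like after 1 copy is deleted in cardiomyocytes. The Myh6 promoter drives Cre in cardiomyocytes, whereas most collagen transcripts of the heart are made by other cells, which keep both copies. No group with Cre and without a floxed allele was among the samples, so the effect of Cre and that of the deletion cannot be told apart. The labels call the hearts biological replicates and do not tie the same-numbered ones to a litter.

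Collagens are proteins, most of them secreted, whose chains wind around each other in a helix. Fibrillar collagens I, III and V form the cables of the interstitial matrix and are made in the heart mainly by fibroblasts. Collagen IV is the meshwork of basement membranes, the sheets that surround each cardiomyocyte and each capillary, and collagen VI forms beaded filaments next to them. In the days after birth the heart lays down this matrix as it grows.

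All 4 libraries of a group are given below in the order of their replicate numbers, and values are FPKM, fragments scaled to gene length and library size, as deposited by the authors. Each library held between 15490622 and 19234777 reads by back-calculation from these values. The whole-gene level of Mrps5 was 6.84, 7.12, 6.995 and 7.68 FPKM in cHET hearts, against 11.6, 6.27, 10.1 and 5.15 FPKM in control hearts (two-sided exact permutation p = 0.486), and it counts all cell types and the exons outside the floxed part. All 6 cardiomyocyte markers listed were present, with summed levels of 9968 to 13056 FPKM in cHET hearts and 9884 to 11446 FPKM in control hearts. On the log2(FPKM + 1) scale cHET minus control was below 0 in 4 of the 6 and above 0 in 2, with a median of -0.15. Actc1 averaged 7578 FPKM in cHET hearts and 5920 FPKM in control hearts, and Myh6 averaged 1812 and 2146 FPKM. Across the 13029 genes with a mean of at least 1 FPKM, limma on log2(FPKM + 1) called 3 genes higher in cHET hearts, Ndnf, Syt7 and Them6, and 0 lower, at an adjusted p below 0.05 (Benjamini-Hochberg over all genes tested).

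A few libraries stood apart in ways that touch the collagen values. Control hearts 1 and 2 had Ucp1, the brown fat uncoupling protein, at 17.8 and 16.7 FPKM, against 0.286, 6.56, 0 and 1.62 FPKM in cHET hearts and 0.0387 and 0.149 FPKM in control hearts 3 and 4. The same 2 control hearts had the endothelial cadherin Cdh5 at 35.9 and 35.2 FPKM, against 59.2 to 72.1 FPKM in cHET hearts and 67.6 and 78.8 FPKM in the remaining controls. The other endothelial markers did not all follow Cdh5: Pecam1 was at 27.3, 29.6, 28.1 and 28.9 FPKM in cHET hearts, against 24.0, 27.0, 31.5 and 35.2 FPKM in control hearts. The median deviation of the 8 endothelial and endocardial markers from their means over all hearts was -0.08, -0.03, -0.15 and -0.04 (log2) in cHET hearts, against -0.11, 0.12, 0.13 and 0.27 in control hearts. Control 2 also stood apart in summed red cell markers, at 8038 FPKM, against 1542 to 2328 FPKM in cHET hearts and 993 to 2554 FPKM in the remaining controls, and in summed neutrophil markers, at 64.7 FPKM, against 7.77 to 13.9 FPKM in cHET hearts and 7.20 to 23.3 FPKM in the remaining controls. The cHET heart 3 had the atrial light chain Myl7 at 69.0 FPKM, against 2179 to 3775 FPKM in the remaining cHET hearts and 643 to 2918 FPKM in control hearts. The labels say heart tissue and do not say whether each sample held the same parts of the heart. In such RNA, fewer cells of a type and less RNA per cell cannot be told apart, nor can a different share of the tissue taken.

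Of the 44 collagen genes, 24 reached a mean of 1 FPKM and were tested, namely 8 fibrillar, 6 basement membrane, 4 Col6 and 6 other genes. Col4a6 stood just inside that limit with a mean of 1.49 FPKM and Col11a2 just outside it with 0.965 FPKM. The 5 most abundant collagen genes, Col3a1, Col4a1, Col1a1, Col4a2 and Col1a2, made up 70.0% to 73.5% of the summed collagen FPKM in each library. The group means of these 5 genes differed by less than the spread between hearts, and no collagen gene passed the test.

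The promoters of the most abundant chains are shown first, because Col4a1 and Col4a2 lie head to head on chromosome 8 and overlap by 22 bases at their starts, and because their transcripts moved together across the libraries. The windows run from 250 bases before to 50 bases after the RefSeq transcription start (GRCm38.p6), written 5′ to 3′ on the strand of the gene. The Col4a1 window is chr8:11312777-11313076 on the minus strand and the Col4a2 window chr8:11312555-11312854 on the plus strand. Capitals mark the 78 bases that both windows share, read from opposite strands.
Col4a1: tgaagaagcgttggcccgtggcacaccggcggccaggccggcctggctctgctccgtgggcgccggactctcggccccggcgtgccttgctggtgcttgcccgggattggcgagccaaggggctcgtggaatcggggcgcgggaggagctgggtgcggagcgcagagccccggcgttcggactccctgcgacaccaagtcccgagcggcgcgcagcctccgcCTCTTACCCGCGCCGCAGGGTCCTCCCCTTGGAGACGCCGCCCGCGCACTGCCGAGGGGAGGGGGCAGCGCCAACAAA
Col4a2: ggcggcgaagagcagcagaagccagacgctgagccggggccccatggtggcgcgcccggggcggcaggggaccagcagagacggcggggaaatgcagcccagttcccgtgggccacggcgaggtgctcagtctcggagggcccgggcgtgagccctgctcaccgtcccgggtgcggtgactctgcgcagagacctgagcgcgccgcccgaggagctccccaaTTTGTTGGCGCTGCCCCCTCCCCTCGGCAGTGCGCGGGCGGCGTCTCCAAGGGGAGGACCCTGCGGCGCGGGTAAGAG
The share of G or C was 74% in the Col4a1 window and 73.7% in the Col4a2 window. For the fibrillar chains, Col1a2 (chr6:4505368-4505667, plus strand) and Col3a1 (chr1:45311288-45311587, plus strand) are shown as a contrast, with CCAAT or its complement ATTGG in capitals.
Col1a2: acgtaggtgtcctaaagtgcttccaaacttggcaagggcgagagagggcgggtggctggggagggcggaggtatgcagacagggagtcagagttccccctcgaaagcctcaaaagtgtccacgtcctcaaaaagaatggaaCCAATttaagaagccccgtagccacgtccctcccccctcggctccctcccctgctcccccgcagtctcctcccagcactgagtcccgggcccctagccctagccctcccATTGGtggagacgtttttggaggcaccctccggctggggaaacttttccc
Col3a1: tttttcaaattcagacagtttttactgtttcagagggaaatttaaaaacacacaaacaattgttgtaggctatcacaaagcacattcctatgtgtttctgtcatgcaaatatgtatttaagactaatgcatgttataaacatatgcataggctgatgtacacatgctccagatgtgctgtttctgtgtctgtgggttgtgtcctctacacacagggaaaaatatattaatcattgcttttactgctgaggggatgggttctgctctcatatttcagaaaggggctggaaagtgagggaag
The Col1a2 window held 2 such boxes and 61.0% G or C, whereas the Col3a1 window held 0 and was 37.7% G or C. The Col4a1 and Col4a2 windows held 1 such box each, which the capitals above do not mark.

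RefSeq windows were matched to 35 of the 44 collagen genes by symbol. Those not matched were Col1a1, Col5a2, Col14a1, Col12a1, Col26a1, Col9a3, Col4a3, Col2a1 and Col22a1. A CCAAT box (CCAAT or ATTGG) lay in 12 of the 35 windows (34.3%), against 37.9% of the windows of 27025 genes of all kinds. A GC box (GGGCGG or CCGCCC) lay in 22 of the 35 (62.9%), against 35.9% of all windows. A TATA box (TATAAA or TTTATA) lay in 5 of the 35 (14.3%), against 14.2% of all windows, and Col3a1 was the 1 gene among the 19 tested members with a window that held one. These matches describe the letters of the windows alone, since binding of factors was not measured. Both strands were searched, and matches of different motifs were counted separately.

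The collagen FPKM of a library summed to 923, 1054, 929 and 1074 in cHET hearts, against 721, 945, 1168 and 1229 in control hearts. The cHET hearts lay inside the range of the control hearts, whose spread was wider, with means of 995 ± 80.2 in cHET hearts and 1016 ± 231 in control hearts (SD, n = 4 each). Collagen reads made up 0.713% to 0.876% of all reads in cHET hearts and 0.561% to 1.00% in control hearts. Of the 24 tested genes, 20 had a larger SD among the control hearts than among the cHET hearts. The coefficient of variation had a median of 16.5% in cHET hearts and 23.6% in control hearts over these genes.

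**Figure D1:**
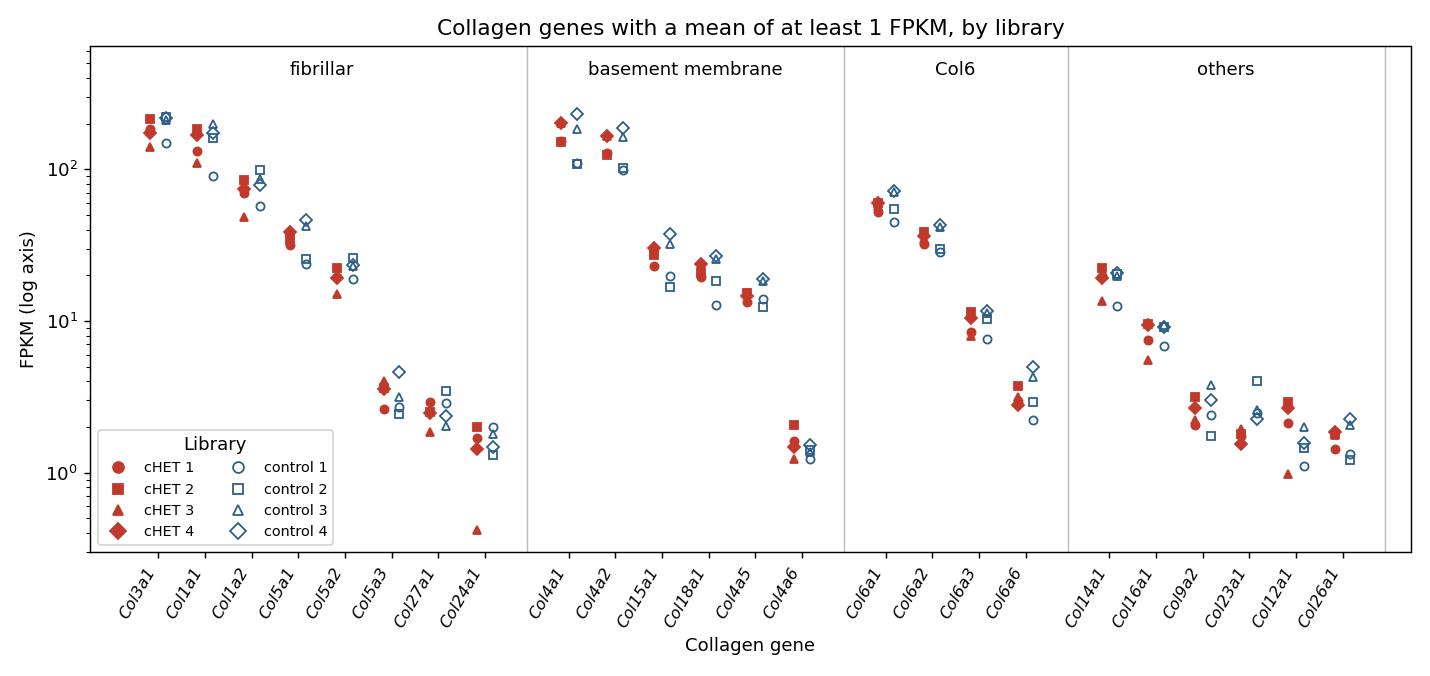
FPKM of the 24 tested collagen genes in each of 8 hearts (log axis), with filled red cHET symbols left of open blue control symbols for each gene, 1 symbol shape per replicate number, and genes grouped by class. The top 5 genes stand at group means of 69.5 to 200.1 FPKM, and the groups do not overlap in Col23a1 alone.

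The fibrillar genes are the type I chains Col1a1 and Col1a2, the type III chain Col3a1, the type V chains, and the low-level chains of types XI, XXIV and XXVII with Col2a1. Col3a1 (chr1:45311538-45349706, plus strand), the homotrimeric fibril collagen of distensible tissues, was at 185, 214, 141 and 174 FPKM in cHET hearts, against 148, 223, 211 and 218 FPKM in control hearts. Col1a1 (chr11:94936224-94953042, plus strand), the major chain of collagen I, was at 133, 184, 109 and 169 FPKM in cHET hearts, against 90.5, 162, 198 and 174 FPKM in control hearts. Col1a2 (chr6:4504814-4541544, plus strand), its partner chain, was at 70.1, 85.0, 48.4 and 74.2 FPKM in cHET hearts, against 57.2, 99.6, 85.8 and 79.0 FPKM in control hearts. In all 3 genes the lowest libraries were cHET 3 and control 1 and the groups overlapped.

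The differences of these 3 genes were small beside their errors. On the log2(FPKM + 1) scale cHET minus control was -0.16 for Col3a1 (SE 0.17, 95% interval -0.55 to 0.23, limma adjusted p = 0.769). It was -0.21 for Col1a2 (SE 0.21, interval -0.67 to 0.26, limma adjusted p = 0.748) and -0.04 for Col1a1 (SE 0.26, interval -0.62 to 0.54, limma adjusted p = 0.963). The Col1a1 interval therefore holds changes of both directions larger than any difference measured among the tested collagen genes.

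Collagen V starts and thins the fibrils of collagen I. Col5a1 was at 31.5, 35.0, 33.7 and 38.5 FPKM in cHET hearts, against 23.6, 25.7, 42.3 and 46.6 FPKM in control hearts. Its 4 cHET values lay together between the 2 low and the 2 high control hearts. Col5a2 was at 19.5, 22.3, 14.98 and 19.2 FPKM in cHET hearts, against 18.8, 26.2, 22.97 and 23.3 FPKM in control hearts. Col5a2 had the largest difference of the 8 fibrillar genes tested, -0.26 (SE 0.13, interval -0.56 to 0.05, limma adjusted p = 0.607), and the groups overlapped, since control 1 lay below 3 of the cHET hearts. Col5a3 was at 2.61, 3.60, 4.01 and 3.54 FPKM in cHET hearts, against 2.70, 2.43, 3.17 and 4.59 FPKM in control hearts, with overlapping groups.

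Col24a1 and Col27a1 encode fibrillar collagens of low abundance in the heart. Col24a1 was at 1.68, 2.01, 0.417 and 1.43 FPKM in cHET hearts, against 1.99, 1.32, 1.80 and 1.47 FPKM in control hearts. The value in cHET 3 stood alone at 51 reads and made Col24a1 the most variable of the tested genes, with its highest library 4.82 times its lowest. Its log2 difference was -0.20 with all hearts and 0.03 without cHET 3. Col27a1 was at 2.91, 2.52, 1.86 and 2.49 FPKM in cHET hearts, against 2.88, 3.45, 2.04 and 2.35 FPKM in control hearts, with no order between the groups.

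Of the 8 fibrillar genes tested, 0 passed the test, 6 had a log2 difference below 0, and their median was -0.12, against 0.01 over all genes tested. The fibrillar sum was 448, 550.4, 356 and 484 FPKM in cHET hearts, against 348, 545, 569 and 551 FPKM in control hearts. The lowest hearts were control 1 and cHET 3, and 1 library could turn the class median, which was 0.011 without cHET 3 and -0.21 without control 1.

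Among the basement membrane genes, Col4a1 and Col4a2 encode the chains of the collagen IV found in nearly all basement membranes. Col4a1 (chr8:11198423-11312826, minus strand) was at 153, 151, 202 and 200.4 FPKM in cHET hearts, against 109.6, 108, 185 and 230.1 FPKM in control hearts. Col4a2 (chr8:11312805-11449287, plus strand) was at 127, 124, 166 and 167 FPKM in cHET hearts, against 99.4, 103, 163 and 188 FPKM in control hearts. For both genes control hearts 1 and 2 were the lowest of all 8 and control 4 the highest, with the cHET hearts between. Cdh5 was low in the same 2 control hearts, whereas the endothelial list as a whole was not low in control 2, as given above. The part of endothelial cells in these values was not tested.

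The log2 difference was 0.22 for Col4a1 (SE 0.25, interval -0.35 to 0.79, limma adjusted p = 0.778) and 0.12 for Col4a2 (SE 0.22, interval -0.38 to 0.63, limma adjusted p = 0.867). Without control hearts 1 and 2 both signs turned, to -0.24 for Col4a1 and -0.27 for Col4a2. A direction for collagen IV between the groups therefore could not be read from these 8 hearts.

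Col15a1 and Col18a1 encode the collagens of basement membrane zones that release the fragments restin and endostatin. Col15a1 (chr4:47208161-47313167, plus strand) was at 22.9, 27.1, 30.3 and 30.4 FPKM in cHET hearts, against 19.9, 16.6, 32.2 and 37.2 FPKM in control hearts. Col18a1 (chr10:77052178-77166548, minus strand) was at 19.6, 20.8, 23.9 and 23.6 FPKM in cHET hearts, against 12.8, 18.3, 25.5 and 26.7 FPKM in control hearts. As for collagen IV, control hearts 1 and 2 were lowest and control 4 highest, and here control 3 too lay above every cHET heart. Their log2 differences were 0.12 for Col15a1 (SE 0.24) and 0.12 for Col18a1 (SE 0.21).

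Col4a5 and Col4a6 encode the chains of a collagen IV network with narrower distribution and lie head to head on the X chromosome, 1308 bases apart. Col4a5 was at 13.2, 15.2, 15.2 and 14.6 FPKM in cHET hearts, against 14.02, 12.3, 18.3 and 18.9 FPKM in control hearts. Col4a6 was at 1.63, 2.06, 1.23 and 1.49 FPKM in cHET hearts, against 1.24, 1.41, 1.36 and 1.52 FPKM in control hearts. Per length, the mean level was 15.2 FPKM for Col4a5 and 1.49 FPKM for Col4a6. The neighbours did not share an order of libraries, since control 4 was highest for Col4a5 and cHET 2 for Col4a6. The remaining pair, Col4a3 and Col4a4, known from the kidney filter, also lies head to head, 71 bases apart on chromosome 1, and stayed at means of 0.320 FPKM for Col4a3 and 0.669 FPKM for Col4a4.

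Of the 6 basement membrane genes tested, 0 passed the test, 5 had a log2 difference above 0, and their median was 0.12. That median was -0.00023 without control 1, 0.032 without control 2 and -0.26 without both, and it was 0.23 without control 3 and 0.27 without control 4. The basement membrane sum was 339, 341, 440.6 and 438 FPKM in cHET hearts, against 258, 260.0, 426 and 503 FPKM in control hearts.

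**Figure D2:**
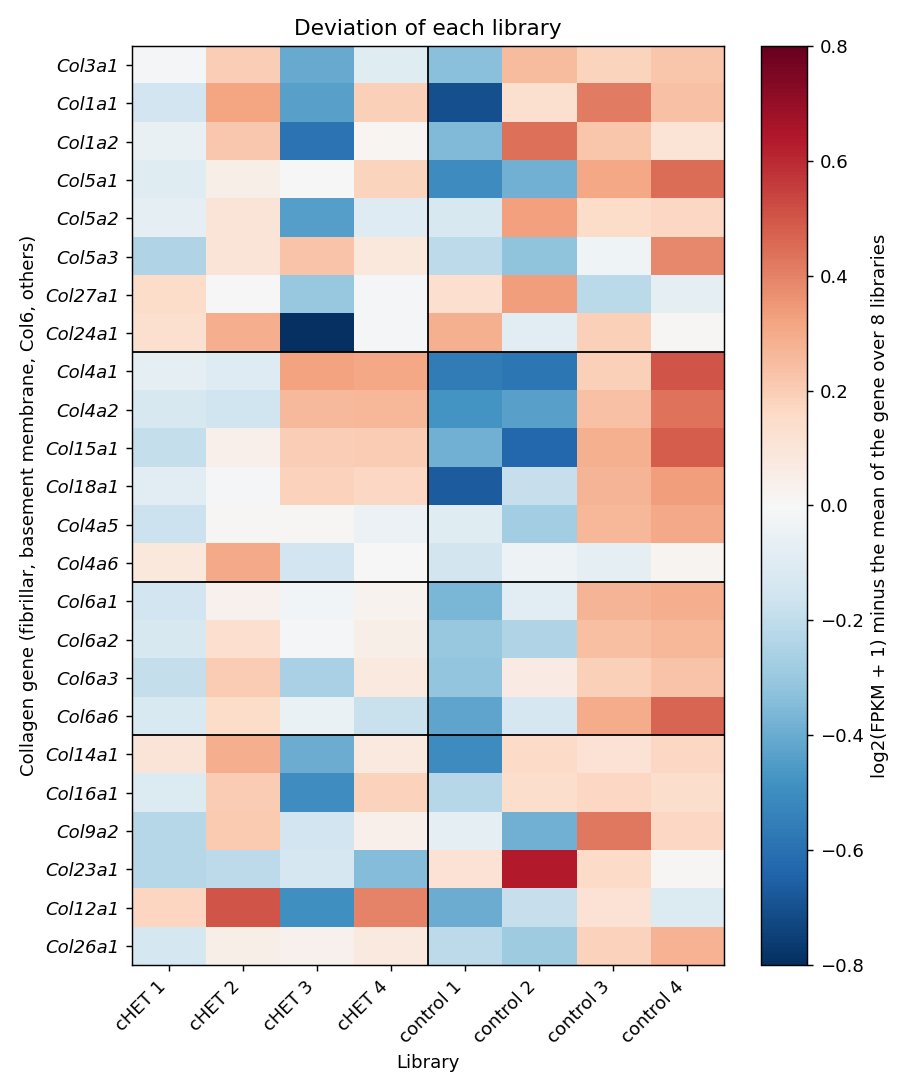
Deviation of each heart from the mean over the 8 hearts, on the log2(FPKM + 1) scale (colour), for the 24 tested collagen genes in rows grouped by class, with cHET hearts left and control hearts right. Control 1 is low in every class (class medians -0.43 to -0.22), control 2 is low in the basement membrane genes (median -0.35) and not in the fibrillar genes (median 0.19), and cHET 3 is low in the fibrillar genes (median -0.42) and not in the basement membrane genes (median 0.19).

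Collagen VI is built from the chains of Col6a1 and Col6a2 with Col6a3 or a relative of it. Col6a1 (chr10:76708792-76726168, minus strand) was at 52.4, 59.9, 57.5 and 59.6 FPKM in cHET hearts, against 45.01, 54.7, 70.8 and 71.7 FPKM in control hearts. Col6a2 (chr10:76595762-76623630, minus strand) was at 32.2, 38.7, 34.8 and 36.4 FPKM in cHET hearts, against 28.4, 29.6, 41.7 and 42.6 FPKM in control hearts. Control hearts 1 and 2 were the lowest libraries of Col6a2, and control hearts 3 and 4 the highest of both genes. Col6a3 was at 8.47, 11.4, 8.01 and 10.4 FPKM in cHET hearts, against 7.66, 10.3, 11.3 and 11.7 FPKM in control hearts. Col6a6, a relative of Col6a3, was at 2.96, 3.75, 3.14 and 2.80 FPKM in cHET hearts, against 2.21, 2.92, 4.29 and 4.94 FPKM in control hearts. All 4 groups of values overlapped between the genotypes.

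The log2 differences of the Col6 genes were -0.05 for Col6a1 (SE 0.15, interval -0.40 to 0.29), 0.02 for Col6a2 (SE 0.15), -0.08 for Col6a3 (SE 0.15) and -0.10 for Col6a6 (SE 0.18). None passed the test, and the class median was -0.07, with a range of -0.20 (without control 1) to 0.034 (without control 4) when 1 library was left out. Col6a4 and Col6a5 had at most 7 reads in a library. The Col6 share of the summed collagen FPKM was the steadiest of the 4 classes, at 10.2% to 11.1% in cHET hearts and 10.3% to 11.5% in control hearts.

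**Figure D3:**
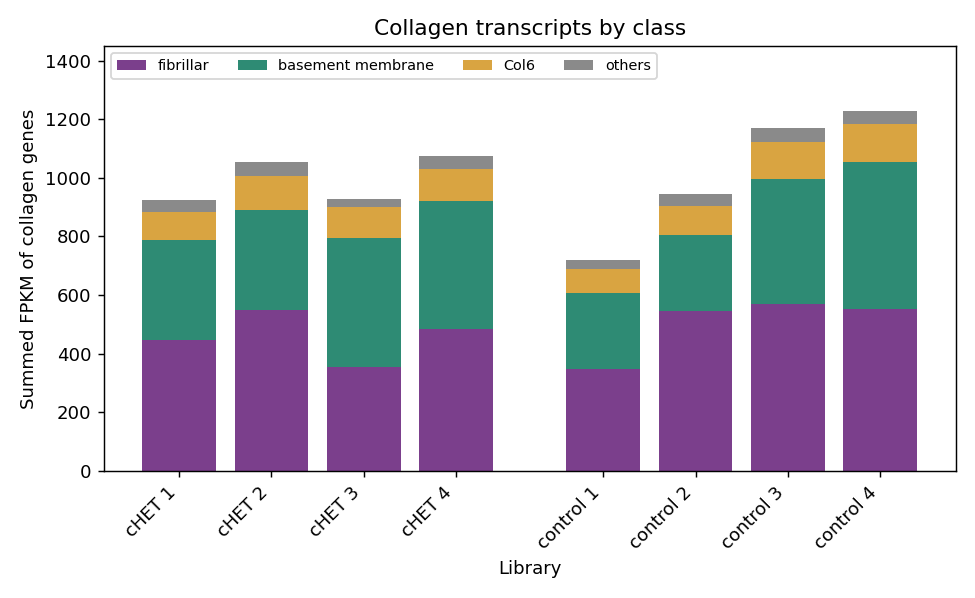
Summed FPKM of the 4 collagen classes (stacked colours) in each heart, cHET hearts left and control hearts right. The basement membrane class is larger than the fibrillar class in cHET 3 alone (440.6 against 356 FPKM), and control 2 has the largest fibrillar share (57.6%).

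Among the other collagens, Col14a1 and Col16a1 encode chains that sit on the surface of fibrils or link them. Col14a1 was at 19.7, 22.5, 13.6 and 19.3 FPKM in cHET hearts, against 12.5, 20.4, 19.8 and 20.6 FPKM in control hearts. Col16a1 was at 7.54, 9.59, 5.52 and 9.47 FPKM in cHET hearts, against 6.86, 9.17, 9.34 and 9.17 FPKM in control hearts. As with collagens I and III, cHET 3 and control 1 were the lowest libraries of both genes. Their log2 differences were 0.04 for Col14a1 (SE 0.19) and -0.11 for Col16a1 (SE 0.16).

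Col12a1, which encodes a fibril-associated collagen of tissues under load, was at 2.12, 2.93, 0.977 and 2.65 FPKM in cHET hearts, against 1.10, 1.45, 2.00 and 1.57 FPKM in control hearts. Apart from cHET 3, the cHET hearts lay above every control heart. The log2 difference was 0.29, the largest above 0 among the tested collagens (SE 0.21, interval -0.19 to 0.77, limma adjusted p = 0.684), and it was 0.50 without cHET 3 (limma adjusted p = 0.641).

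Col23a1 (chr11:51289920-51583918, plus strand), which encodes a transmembrane collagen, was at 1.75, 1.79, 1.93 and 1.54 FPKM in cHET hearts, against 2.49, 4.00, 2.59 and 2.25 FPKM in control hearts. These values rest on 153 to 205 reads in a cHET library and 211 to 371 in a control library. Every cHET heart lay below every control heart, and Col23a1 was the 1 tested collagen of 24 (4.17%) whose groups were apart. Over all 13029 genes the groups were apart in 4.74%, with cHET lower in 2% and cHET higher in 2.74%, so 1 of 24 is near the background. The log2 difference was -0.46 (SE 0.14, interval -0.77 to -0.15), with an unadjusted limma p of 0.00826 and an adjusted p of 0.410, which did not pass. The difference was -0.32 without control 2, the library highest for Col23a1 (limma adjusted p = 0.408).

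Col9a2, which encodes a chain of a cartilage collagen, was at 2.06, 3.14, 2.21 and 2.68 FPKM in cHET hearts, against 2.39, 1.74, 3.79 and 3.02 FPKM in control hearts. Col26a1 was at 1.44, 1.79, 1.76 and 1.85 FPKM in cHET hearts, against 1.33, 1.21, 2.06 and 2.27 FPKM in control hearts. The groups overlapped in both genes, and their log2 differences were -0.06 for Col9a2 (SE 0.17) and 0.01 for Col26a1 (SE 0.14).

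The 20 collagen genes below a mean of 1 FPKM were not tested. The 3 most abundant were Col11a2, Col8a2 and Col13a1. Col11a2 was at 0.891, 0.896, 0.602 and 0.700 FPKM in cHET hearts, against 1.63, 0.997, 1.25 and 0.751 FPKM in control hearts. Col8a2 was at 0.821, 1.27, 0.472 and 1.00 FPKM in cHET hearts, against 0.545, 0.745, 0.748 and 0.979 FPKM in control hearts. Col13a1 was at 0.864, 1.08, 0.527 and 0.525 FPKM in cHET hearts, against 0.811, 0.793, 0.991 and 0.756 FPKM in control hearts. All 3 overlapped between the groups, and the other 17 had means of 0.0101 to 0.782 FPKM.

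Of these genes, 5, namely Col10a1, Col22a1, Col6a5, Col6a4 and Col19a1, were at 0 in at least 1 library. Col2a1, the main collagen of cartilage, was the 1 untested member of 20 whose groups did not overlap, and it was picked out after its values were seen. Among the 13029 genes with a mean of at least 1 FPKM the groups were apart in 4.74%, with cHET higher in 2.74%. That share was not counted for genes below 1 FPKM. Col2a1 had 15, 13, 10 and 19 reads in cHET hearts, against 5, 7, 4 and 6 reads in control hearts. The totals were 57 (exact Poisson 95% interval 43.2 to 73.9) and 22 (13.8 to 33.3). These intervals cover counting error only, not the spread between hearts. In a fit with no filter on low values the limma adjusted p of Col2a1 was 0.760. The 5 cartilage markers listed summed to 3.28 to 5.63 FPKM in cHET hearts and 4.61 to 6.73 FPKM in control hearts, and their part in the Col2a1 reads was not tested.

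Over all 24 tested collagen genes, limma called 0 in either direction, against a background of 0.023% of all genes tested. With unadjusted p below 0.05 there was 1 (Col23a1), which is 4.17% of the members against 8.95% of all genes tested, where 3.92% had cHET lower and 5.03% had cHET higher. limma's voom on the back-calculated reads likewise called 0, with 1 at an unadjusted p below 0.05. A log2 difference below 0 was found in 13 genes and one above 0 in 11, with a median of -0.05 against 0.01 over all genes tested. Leaving out 1 library gave medians from -0.11 (without control 1) to 0.071 (without control 3). The 95% interval held 0 in 23 of the 24 genes, and the intervals reached from -0.77 to 0.79 at their widest, so differences of that size in single genes are not excluded by these data.

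**Figure D4:**
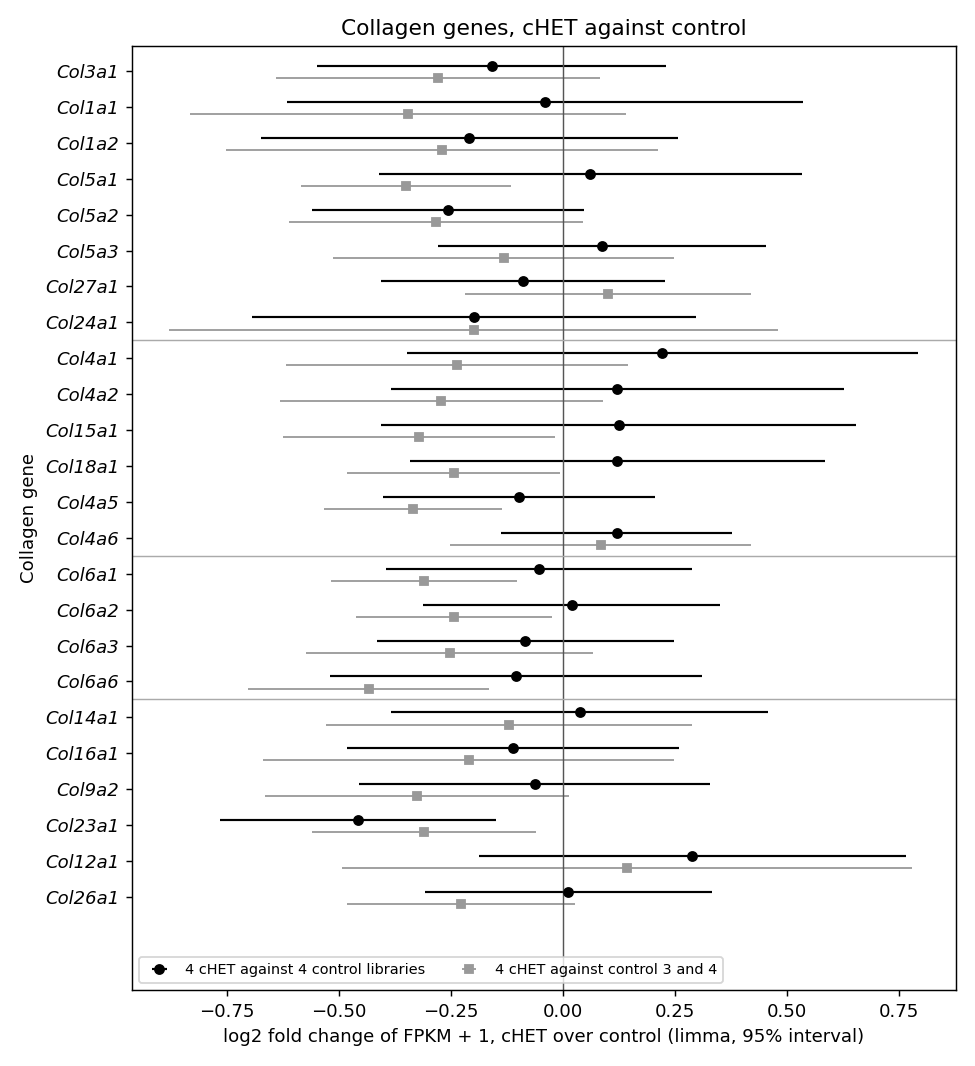
Log2 difference of cHET minus control on the log2(FPKM + 1) scale for each tested collagen gene with its 95% interval (lines), for all 8 hearts (black circles) and without control hearts 1 and 2 (grey squares), with genes grouped by class. Over all 8 hearts the interval of Col23a1 (-0.77 to -0.15) is the 1 of 24 that does not hold 0, and without the 2 control hearts 21 of the 24 points lie below 0.

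Control hearts 1 and 2, with the brown fat transcript, were the 2 lowest libraries in 7 of the 24 genes, namely Col4a1, Col4a2, Col15a1, Col18a1, Col6a2, Col5a1 and Col26a1. In 9 others, Col3a1, Col1a1, Col1a2, Col5a2, Col14a1, Col16a1, Col12a1, Col6a3 and Col4a6, the 2 lowest were cHET 3 and control 1. When control hearts 1 and 2 were left out, 21 of the 24 genes had a log2 difference below 0, with a median of -0.26 against 0.002 over all genes tested. Then 8 of the 24 (33.3%) had an unadjusted limma p below 0.05, all with cHET lower and led by Col4a5 (-0.33), Col6a6 (-0.43), Col6a1 (-0.31) and Col5a1 (-0.35). Over all genes tested that share was 8.52%, with cHET lower in 3.25%. None of the 24 passed the test, with a smallest limma adjusted p of 0.414, against 0.0154% of all genes that did. The 2 control hearts that then remained were the 2 with the largest collagen sums.

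Ratios of chains within a library do not depend on how libraries were scaled, and 6 were fixed for test. Col4a1 over Col4a2 was 1.204, 1.22, 1.22 and 1.201 in cHET hearts, against 1.10, 1.05, 1.13 and 1.23 in control hearts (two-sided exact permutation p = 0.143, adjusted p = 0.514 over the 6 ratios). The ratio thus stayed within a 1.17-fold range over the 8 hearts, while Col4a1 itself ranged 2.13-fold. The cHET ratios were closer to each other (SD 0.00756) than the control ratios (SD 0.0735). Each cHET ratio lay above those of control hearts 1, 2 and 3 and below that of control 4. Col6a1 over Col6a2 was nearly as tight, at 1.63, 1.55, 1.65 and 1.64 in cHET hearts, against 1.59, 1.85, 1.70 and 1.68 in control hearts (exact p = 0.200, adjusted p = 0.514).

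Col1a1 over Col1a2 averaged 2.15 ± 0.176 in cHET hearts and 1.93 ± 0.379 in control hearts (exact permutation p = 0.343), where the 2 controls with the brown fat transcript had 1.58 and 1.62 and the other 2 had 2.31 and 2.20. Col3a1 over Col1a1 averaged 1.22 ± 0.157 in cHET hearts and 1.33 ± 0.240 in control hearts (exact permutation p = 0.514). Col5a1 over Col5a2 averaged 1.86 ± 0.326 in cHET hearts and 1.52 ± 0.480 in control hearts (exact permutation p = 0.286). Collagen IV over collagen I, as Col4a1 over Col1a1, averaged 1.25 ± 0.432 in cHET hearts and 1.03 ± 0.294 in control hearts (exact permutation p = 0.486), and its highest value of all was 1.85 in cHET 3. None of the 6 passed, the adjusted p of each was 0.514, and 0.0286 is the smallest p that 4 against 4 hearts can give.

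**Figure D5:**
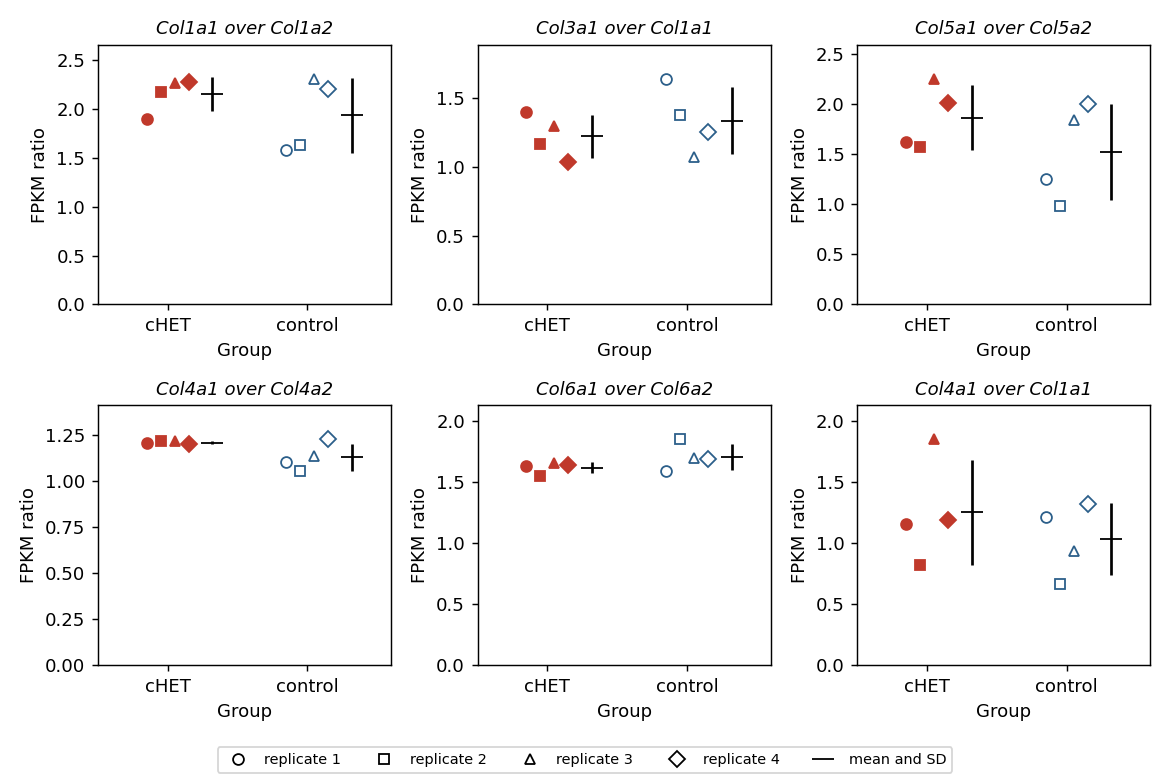
The 6 within-library ratios of collagen chains in each heart (symbols, 1 shape per replicate number), cHET left of control, with the mean and SD of each group beside them (cross lines). The ratio of Col4a1 to Col4a2 is within 1.05 to 1.23 in all 8 hearts, and the other ratios overlap between the groups too.

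The levels of these ratios, though not their comparison between groups, depended on the length by which reads were divided. The gene length in the table covers every annotated exon, 12426 bases for Col1a2 against 5348 in its longest coding transcript, and 9816 against 5564 for Col3a1. With the longest coding transcript the mean ratio over the 8 hearts was 0.971 for Col1a1 over Col1a2, against 2.04 with the table's length, and 2.04 for Col3a1 over Col1a1, against 1.28. The order of Col1a1 and Col1a2 by level is therefore not settled by FPKM.

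The enzymes and partners that build and read collagen were followed in 5 lists, and 0 genes of any list passed the test. Of the 20 genes for collagen folding and modification, all tested, 11 lay above 0 and 9 below, with a median of 0.04. The collagen chaperone Serpinh1 was at 356 ± 33.9 FPKM in cHET hearts and 328 ± 41.7 FPKM in control hearts, and P4hb, a subunit of prolyl hydroxylase, was at 135 ± 9.77 FPKM in cHET hearts and 123 ± 13.98 FPKM in control hearts. P3h4, part of a lysine-modifying complex, had the smallest p of the list, with 28.5 ± 3.33 FPKM in cHET hearts and 35.2 ± 3.71 FPKM in control hearts (log2 difference -0.30, limma adjusted p = 0.486).

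Of 13 genes for procollagen processing and crosslinking, 10 were tested, with 4 above 0, 6 below and a median of -0.03. Pcolce, which speeds the cleavage of procollagen ends, was at 50.8 ± 6.11 FPKM in cHET hearts and 41.3 ± 4.79 FPKM in control hearts (limma adjusted p = 0.524), and the lysyl oxidase relative Loxl1 was at 37.7 ± 8.63 FPKM in cHET hearts and 38.8 ± 7.87 FPKM in control hearts. Of 9 collagen receptors, 6 were tested, with 3 above 0, 3 below and a median of 0.02. The integrin chain Itgb1 was at 159 ± 10.95 FPKM in cHET hearts and 154 ± 16.3 FPKM in control hearts, its collagen-binding partner Itga1 at 5.81 ± 0.686 FPKM in cHET hearts and 4.49 ± 0.916 FPKM in control hearts (limma adjusted p = 0.524), and the receptor kinase Ddr1 at 32.1 ± 2.53 FPKM in cHET hearts and 28.1 ± 8.60 FPKM in control hearts.

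Of 10 genes for collagen breakdown and its inhibitors, 6 were tested, with 1 above 0, 5 below and a median of -0.10. Timp1, an inhibitor of matrix proteases, was at 13.99 ± 2.52 FPKM in cHET hearts and 20.8 ± 4.44 FPKM in control hearts (log2 difference -0.53, limma adjusted p = 0.440). Timp2 was at 42.0 ± 4.25 FPKM in cHET hearts and 43.6 ± 7.09 FPKM in control hearts, and the gelatinase Mmp2 at 39.9 ± 3.90 FPKM in cHET hearts and 45.001 ± 8.19 FPKM in control hearts. Of 11 fibril and matrix partners, all tested, 4 lay above 0 and 7 below, with a median of -0.07. The collagen-binding Sparc was at 449 ± 45.4 FPKM in cHET hearts and 457 ± 50.7 FPKM in control hearts, periostin (Postn) at 116 ± 24.9 FPKM in cHET hearts and 121 ± 20.9 FPKM in control hearts, and Nid2, which links laminin to collagen IV, at 24.1 ± 2.89 FPKM in cHET hearts and 17.5 ± 5.34 FPKM in control hearts (limma adjusted p = 0.525).

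Markers of the cells that make collagen matched the collagen levels in some libraries and not in others. The 8 fibroblast markers summed to 481, 548, 355 and 442 FPKM in cHET hearts, against 554, 698, 532 and 466 FPKM in control hearts, lowest in cHET 3, where collagens I and III were also low. In control 1, which had the lowest fibrillar sum, the fibroblast sum was the second highest of the 8 hearts. In control 4 a high fibrillar sum went with a low fibroblast sum. Mgp alone was at 208 FPKM in control 1 and 101 FPKM in control 4. The median deviation of the 8 markers did not show this contrast. It was -0.04, 0.12, -0.46 and -0.16 (log2) in cHET hearts, against -0.07, 0.31, 0.13 and 0.05 in control hearts. Of the 8 fibroblast markers 7 had a log2 difference below 0, with a median of -0.21 and 0 past the test. Their leading genes were Mgp, at 114 ± 29.1 FPKM in cHET hearts and 184 ± 83.1 FPKM in control hearts, and Dpt, at 119 ± 35.3 FPKM in cHET hearts and 134 ± 17.3 FPKM in control hearts. The 8 endothelial and endocardial markers, led by Cdh5 and Pecam1, summed to 159 to 174 FPKM in cHET hearts and 137 to 198 FPKM in control hearts. The sums of control 1 and 2 were the lowest, at 137 and 153 FPKM, but Cdh5 is itself the largest part of these sums by mean level. By the median deviation of the 8 markers, -0.11 in control 1 and 0.12 in control 2, the list was not low in control 2. Of these 8 markers 6 had a log2 difference below 0, with a median of -0.17, 4 at an unadjusted limma p below 0.05 and 0 past the test. Over all genes tested 8.95% had an unadjusted limma p below 0.05, with cHET lower in 3.92%. No marker of either list was at 0 in every library, 2 of the fibroblast markers (Dcn and Lum) also stand in the list of matrix partners, and their part in the collagen values was not tested.

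Of the other lists, the 8 epicardial and mesothelial markers, led by Aldh1a2 and Msln, summed to 44.2 to 64.7 FPKM in cHET hearts and 64.2 to 111 FPKM in control hearts. Their median log2 difference was -0.54, and 4 had an unadjusted limma p below 0.05, all with cHET lower. The 8 smooth muscle and pericyte markers, led by Acta2 and Rgs5, summed to 514 to 855 FPKM in cHET hearts and 442 to 868 FPKM in control hearts. The 7 of them tested had a median log2 difference of -0.04, with 4 below 0 and 3 above. The 7 macrophage and leukocyte markers, led by Lyz2 and C1qa, summed to 58.5 to 92.5 FPKM in cHET hearts and 77.3 to 162 FPKM in control hearts. The 6 tested all lay below 0, with a median log2 difference of -0.46, and 3 had an unadjusted limma p below 0.05. An unadjusted limma p below 0.05 was found in 8.95% of all genes tested, with cHET lower in 3.92%. The 4 atrial markers, led by Myl7 and Nppa, summed to 241 FPKM in cHET 3, 3427 to 5277 FPKM in the remaining cHET hearts and 1459 to 5117 FPKM in control hearts. The 4 fat markers, led by Cidea and Ucp1, summed to 29.0 to 42.3 FPKM in cHET hearts, 59.7 and 55.5 FPKM in control hearts 1 and 2, and 24.6 and 28.6 FPKM in the remaining controls. Of the cardiomyocyte markers, led by Actc1 and Myh6, 6 were tested, of the red cell markers, led by Hbb-bs and Hba-a1, 4, and of the neutrophil markers, led by S100a9 and S100a8, 2. Of the cartilage markers, led by Sox9 and Acan, 2 were tested. Of the skeletal muscle markers, led by Acta1 and Myog, Acta1 alone was tested. Myod1 was at 0 throughout, Myog averaged 0.078 FPKM in cHET hearts and 0.053 FPKM in control hearts, and Myh4 was too low to test. The Acta1 groups did not overlap. Acta1 was at 125, 89.7, 111 and 167 FPKM in cHET hearts, against 19.9, 73.6, 54.5 and 48.7 FPKM in control hearts. A skeletal muscle source of the Acta1 reads was not tested. Over all 13029 genes the groups were apart in 4.74%, with cHET higher in 2.74%. Groups were also apart in 2 endothelial and endocardial markers and in 1 epicardial and mesothelial marker. None of the markers tested in these lists passed. The 4 thymus and T cell markers, led by Ptcra and Cd3d, were too low to test, with sums of 0.0282 to 0.322 FPKM in cHET hearts and 0 to 0.133 FPKM in control hearts. The part of all these cells in the collagen values was not tested.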

How the data were processed

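Poly(A) RNA of 8 samples of heart tissue was sequenced. The authors deposited FPKM values for 54532 genes, with gene length and coordinates. HISAT2 2.0.5, featureCounts 1.5.0-p3, DESeq2 1.20.0 and the build mm9 are named in the submitters' processing notes, which give them no role or order. The deposited coordinates, however, equal those of GRCm38 (GENCODE M21) for 53499 of 54409 shared gene IDs (98.3%) and for all 44 collagen genes, so GRCm38 is used here. Whether counting used strand is not given in the sources used here, so reads of overlapping genes such as Col4a1 and Col4a2 at their starts cannot be told apart.

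FPKM multiplied by gene length gave whole reads for 100% of the values (tolerance 0.05 reads). Replicates of a group differed by more than sampling noise (smallest chi-square per gene 16.4). The test was limma 3.58.1 in R 4.3.3 (trend and robust) on log2(FPKM + 1), a scale that understates changes of low genes, over genes with a mean of at least 1 FPKM, checked on simulated data. P-values were two-sided with Benjamini-Hochberg adjustment at 0.05. Chain ratios were compared with exact permutation tests. Alternatives covered pseudocount, filter, scaling, variance model, library weights, voom, gene set, sex, replicate number and left-out libraries. Sex was inferred from the levels of Y-linked genes against Xist. By that rule cHET 1, control 1 and control 3 were male and the remaining hearts female, so sex was not balanced between the groups. Intervals on read totals cover counting error only.

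Every collagen gene with a mean of at least 1 FPKM is named, with the 3 highest below it, the 2 highest and the smallest p of each of 5 pathway lists, and the 2 highest of each of 14 cell marker lists, 1 of which is not reported here. The collagen genes and all lists were chosen with earlier results of these data known.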

Additional observations from a re-analysis of the deposited data

Results flagged for a closer look

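Of the 70 groups of values examined, cHET and control groups together, 5 held 1 library far from the other 3. Each time it was control heart 1, below the rest of the control group. Chance flags about 1 in 20 separate groups, but these 5 are not separate, since the flagged sums contain the flagged genes. Their number therefore cannot be set against that share. The values were 148 FPKM for Col3a1, 12.5 FPKM for Col14a1, 6.86 FPKM for Col16a1, 348 FPKM for the fibrillar sum and 32.3 FPKM for the sum of the other collagens. Control heart 1 also had Ucp1 at 17.8 FPKM, whose part in these values was not tested. Its fibroblast markers summed to 554 FPKM, against 466 to 698 FPKM in the remaining controls. Their median deviation was -0.07 (log2), against 0.05 to 0.31 in the remaining controls.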

How the results depend on the processing

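No collagen gene passed the test under any of 23 alternatives, where the lowest limma adjusted p was 0.153 (Col23a1, library weights). Under the 22 alternatives that tested Col23a1 it stayed between -0.64 and -0.31, with adjusted p from 0.153 to 0.927. The sign of the log2 difference changed in 55 of 543 values, in 17 genes, and in none for Col3a1, Col1a2, Col5a2, Col4a5, Col12a1, Col23a1 and Col4a6. The cause was not tested. With library weights the values were -0.0092 for Col4a1, -0.090 for Col4a2, -0.13 for Col6a2, -0.16 for Col5a1, -0.11 for Col15a1, -0.091 for Col18a1, -0.017 for Col14a1, 0.073 for Col27a1 and -0.11 for Col26a1. Without control hearts 1 and 2 they were -0.24 for Col4a1, -0.27 for Col4a2, -0.24 for Col6a2, -0.35 for Col5a1, -0.32 for Col15a1, -0.24 for Col18a1, -0.12 for Col14a1, 0.10 for Col27a1, -0.13 for Col5a3 and -0.23 for Col26a1, with medians of -0.26 over the members and -0.26 over the basement membrane genes. With TPM they were 0.059 for Col1a1, 0.044 for Col6a1, 0.0052 for Col6a3 and 0.0082 for Col9a2. The median over all genes tested was 0.094 with TPM, so these values lay below it. With quantile normalization the value was 0.024 for Col1a1. With sex as a covariate the values were -0.0066 for Col6a2, -0.0013 for Col14a1 and -0.011 for Col26a1. Leaving out 1 library at a time gave -0.13 to 0.18 for Col14a1, -0.064 to 0.31 for Col15a1, -0.21 to 0.036 for Col16a1, -0.081 to 0.25 for Col18a1, -0.28 to 0.10 for Col1a1, -0.33 to 0.033 for Col24a1, -0.081 to 0.11 for Col26a1, -0.18 to 0.0067 for Col27a1, -0.017 to 0.29 for Col4a2, -0.10 to 0.22 for Col5a1, -0.0045 to 0.23 for Col5a3, -0.19 to 0.035 for Col6a1, -0.078 to 0.11 for Col6a2, -0.26 to 0.034 for Col6a6, -0.20 to 0.066 for Col9a2. Over all genes, 3 were called higher and 0 lower. The calls higher were 1 with a filter of 5 FPKM, 6 with TPM and 8 with library weights (3 lower), and voom on the back-calculated reads called 3 higher and 0 lower. With the replicate number as a block, 1 gene was called higher and 0 collagen genes, with a smallest limma adjusted p of 0.217 among the collagen genes. Unadjusted p was then below 0.05 in 946 genes higher and 801 lower, against 655 and 511 without the block. Same-numbered hearts deviated together with correlations of 0.29, 0.27, 0.052 and 0.057. The same-numbered control was the closest for cHET 1 and 2, but not for cHET 3 and 4. The labels tie no numbers to a litter, and the numbers were not taken as pairs. Without control hearts 1 and 2 the log2 differences of 3 ratios turned, to -0.074 for Col1a1 over Col1a2, 0.068 for Col3a1 over Col1a1 and -0.060 for Col5a1 over Col5a2. Over all alternatives the smallest unadjusted exact permutation p of a ratio was 0.0286 and the lowest adjusted p 0.171, so no ratio passed. With the longest coding transcript, an alternative chosen after seeing the data, mean ratios were 0.971 for Col1a1 over Col1a2, 2.04 for Col3a1 over Col1a1, 1.18 for Col5a1 over Col5a2, 1.29 for Col4a1 over Col4a2 and 0.991 for Col6a1 over Col6a2. The edgeR quasi-likelihood test was planned for raw counts alone and was not run. Depth limits the 20 genes below 1 FPKM, some of them at 0 reads.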
